A study of Homo sapiens with 4 samples.

Results

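Protocadherin transcripts were followed after siRNA knockdown of SOX2 in LN229, an established line of human glioblastoma. The probes were all gene probes of the array whose symbol, taken alone or within a list of symbols, starts with PCDH, and each probe was read by itself. These were 81 of 33096 gene probes and covered 68 symbols: 20 probes of the alpha cluster (PCDHA), 19 of the beta cluster (PCDHB), 23 of the gamma cluster (PCDHG) and 19 of nonclustered protocadherins. Of the 81 probes, 76 carried 1 symbol and 5 carried several.

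Total RNA was hybridised to 1-colour chemiluminescent oligonucleotide arrays, 2 after SOX2 knockdown and 2 after mock knockdown with a siRNA that has no target. All 4 samples were LN229 cells grown in DMEM and transfected with siRNA, so both groups carried one. The knockdown was transient, and the sources do not state which of the study's SOX2 siRNAs was used for the arrays. The study describes the 2 arrays of a group as biological replicates from separate transfections, and a group of only 2 arrays limits how precise each value can be. A signal is expressed as a multiple of its array's 75th percentile and has no unit, and a probe was called above background where its signal-to-noise ratio (S/N) was over 3. That held for 63.5% to 68.9% of all probes and for 42 to 47 of the 81 protocadherin probes per array. One label, on treatment, speaks of the colon cancer line SW620, whereas the cell line label says LN229. Of 6 glioma line markers, VIM, CD44, TNC and NES were above background on all 4 arrays, PDGFRA on 3 and FN1 on 2. Of 9 colon epithelium markers, VIL1 was above background on all 4 arrays with 1 of its 2 probes, CDX2 and LGALS4 on both mock arrays alone, CDX1 on 2 arrays, TACSTD1, GPA33 and CEACAM5 on 1 each, and CDH17 and KRT20 on none, and the signals of the list summed to 0.378 and 0.354 in mock and 0.282 and 0.428 after knockdown. Signals of the 4 astrocyte markers, with AQP4 on no array above background, summed to 33.3 and 41.7 in mock and 29.5 and 25.8 after knockdown. Nearly all of that sum was S100B, while ALDH1L1 was 1.79-fold higher after knockdown. Signals of the neuron markers, with DCX and ELAVL4 on no array above background, summed to 12.04 and 13.3 in mock and 14.3 and 13.5 after knockdown. Most of that sum, 10.2 and 11.5 in mock and 12.2 and 11.6 after knockdown, came from 1 probe annotated to both STMN1 and STMN2, and the probe of STMN2 alone was above background on 1 array. The part of these lists in the values below was not tested.

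Protocadherins are cadherin-related adhesion proteins of the cell surface, best known from the nervous system. The clustered genes lie in tandem on chromosome 5 in the order alpha, beta and gamma. In the alpha and gamma clusters each gene contributes a variable first exon that is spliced to constant exons shared by the whole cluster, whereas each beta gene is a single exon that encodes its own protein. Single neurons transcribe few of these genes, chosen through promoters that share a conserved sequence element with the core CGCT and through loops held by CTCF and cohesin, and the mixture of isoforms gives the cell a surface identity. The nonclustered, mostly delta, protocadherins are scattered over the genome and each has its own regulation. SOX2 is an HMG-box transcription factor of neural stem cells that is expressed again in gliomas.

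The promoters show how the clusters are built and which of their genes share letters, so a few are printed before the expression values. RefSeq promoters (build GRCh38.p14, 250 bases before to 50 after each gene's start) were found for 58 of the 68 symbols, and the first entry of each gene was used. CGCT, searched on both strands, was present in 14 of 14 beta, 20 of 20 gamma, 12 of 13 alpha and 10 of 11 nonclustered promoters, against 69.4% of the promoters of 27305 genes. A longer form, GGTGGCGCT, which contains CGCT and was chosen after these sequences had been read, stood in 13 of 14 beta promoters, always on the strand of the gene and starting 2 to 84 bases before the gene's start. It stood in no alpha, gamma or nonclustered promoter and in 0.524% of all promoters. Beta promoters are shown from 30 bases before GGTGGCGCT, in capitals, to 30 bases after it, or to the start of the gene where that came first. Of the probes that passed the detection filter, those of PCDHB5, PCDHB16, PCDHB10 and PCDHB14 were lower on both knockdown arrays than on both mock arrays, and that of PCDHB15 overlapped between groups. The PCDHB1 probe did not pass the filter.
PCDHB5, chr5:141135160-141135205, plus strand: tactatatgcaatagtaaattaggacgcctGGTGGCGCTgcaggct
PCDHB16, chr5:141182291-141182359, plus strand: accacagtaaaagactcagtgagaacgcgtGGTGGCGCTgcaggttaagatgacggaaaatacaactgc
PCDHB10, chr5:141192280-141192348, plus strand: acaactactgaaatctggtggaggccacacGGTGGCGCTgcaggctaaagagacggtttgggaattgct
PCDHB14, chr5:141223244-141223312, plus strand: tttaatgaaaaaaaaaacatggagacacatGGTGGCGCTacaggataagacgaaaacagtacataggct
PCDHB15, chr5:141245295-141245363, plus strand: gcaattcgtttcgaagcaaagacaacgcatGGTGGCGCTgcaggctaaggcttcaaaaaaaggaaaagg
PCDHB1, chr5:141051318-141051373, plus strand: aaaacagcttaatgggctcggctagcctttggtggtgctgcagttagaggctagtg

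The last of these lines, PCDHB1, is all in lower case because its promoter lacks GGTGGCGCT. Its closest 9 bases differed by 1 base, C6T, counted from 1 at the first base of GGTGGCGCT. Alpha promoters held another form around the same core, CATGATGTCGCT, in 8 of 13 and in 0.0293% of all promoters, which were those 8 genes alone, and gamma promoters held GCGCCGCTG in 10 of 20, against 1.25% of all. Both forms contain CGCT, overlap it where they occur and were also chosen after reading the sequences. The alpha form was picked as the string of its length ending in CGCT that the most alpha promoters held. Its high count among alpha promoters therefore follows from the choice. Both forms are shown in capitals for the 2 alpha genes and the 2 gamma genes below.
PCDHA4, chr5:140806957-140807028, plus strand: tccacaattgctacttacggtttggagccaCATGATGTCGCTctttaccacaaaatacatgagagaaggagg
PCDHA5, chr5:140821520-140821591, plus strand: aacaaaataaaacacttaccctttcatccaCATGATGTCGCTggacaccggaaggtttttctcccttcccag
PCDHGB1, chr5:141350007-141350075, plus strand: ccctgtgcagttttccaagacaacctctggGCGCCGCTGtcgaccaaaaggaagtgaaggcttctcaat
PCDHGA8, chr5:141392550-141392618, plus strand: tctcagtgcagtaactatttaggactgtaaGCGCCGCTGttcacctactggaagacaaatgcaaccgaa

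SOX-type letters were searched in the same windows on both strands. CATTGTT was found in 3 of 14 beta and 1 of 13 alpha promoters, PCDHB8, PCDHB10, PCDHB13 and PCDHA7. It was in 0 of 20 gamma and 0 of 11 nonclustered promoters, and in 3.38% of all promoters. AACAAAG was found in 2 of 14 beta (PCDHB2, PCDHB4), 2 of 13 alpha (PCDHA2, PCDHA10) and 3 of 20 gamma promoters (PCDHGA2, PCDHGA6, PCDHGA8). It was in 0 of 11 nonclustered promoters and in 5.28% of all. A match is a description of letters and not a binding site.

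SOX2 itself checks the labels. Its probe read 0.467 and 0.701 in the mock samples, against 0.209 and 0.149 after knockdown. On the knockdown arrays its S/N was 3.17 and 3.06, barely over the cutoff of 3. Both knockdown arrays were below both mock arrays, 3.26-fold lower by group means, with a log2 change of -1.69 (SE 0.28, limma adjusted p = 0.117, Benjamini-Hochberg over 21256 probes).

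Beta protocadherins were lower after SOX2 knockdown almost throughout the cluster, gamma protocadherins were lower in part, and alpha protocadherins did not move in a common direction. Of the 81 probes, 44 entered the comparison, being above background on each array of 1 group or of both: 15 beta, 12 gamma, 10 nonclustered and 7 alpha. A probe that enters through the group where it is high tends to differ, so the 34 probes above background on all 4 arrays are described first. Of those 34, 9 were over 1.5-fold lower, where 4.19% of the 19461 such probes on the array were. A further count, which asks for no size, found that 20 had both knockdown arrays below both mock arrays and 1 had both above, where 26.2% and 20.9% of all such probes did so. The 20 were 10 of 11 beta, 5 of 9 gamma, 4 of 8 nonclustered and 1 of 6 alpha probes. The median log2 change was -0.46 for the beta probes, -0.51 for gamma, -0.25 for nonclustered and -0.03 for alpha, beside -0.00 over all such probes. With a normexp background correction the medians over all compared probes moved to -0.29 for beta from -0.46 and to -0.15 for gamma from -0.53. They moved to -0.28 for nonclustered from -0.46 and to -0.11 for alpha from -0.07, so gamma and alpha lay close together there. Probes of 1 cluster can share exons or near-identical sequence, so they are not independent measurements.

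Over the 44 probes compared, 26 were separated downward, 1 upward and 17 overlapped, against 25.8% separated downward and 21.2% upward among all 21256 probes. By the study's 2-fold rule, 4 were lower (PCDH9, PCDH10, PCDHB11 and PCDHGC3) and 1 was higher (PCDHA4), where 1.04% and 1.57% of all probes passed. The probes of PCDH9, PCDH10 and PCDHB11 entered through the mock group alone, being above background on at most 1 knockdown array. Of the 34 probes above background on all 4 arrays, PCDHGC3 was over 2-fold lower and PCDHA4 over 2-fold higher, where 0.642% and 0.91% of all such probes were. At 1.5-fold 15 of the 44 were lower and 1 was higher, against 5.19% and 5.32%. Among those 15, PCDHB13, PCDHGA2 and PCDHGB5 also entered through the mock group alone. Single probes did not pass limma's test at an adjusted p of 0.05, which no probe on the array passed (0%). At an unadjusted p under 0.05, 20 protocadherin probes were lower and none was higher, where 9.16% and 7.9% of all probes were, 3626 in all (17.1%). Of the 34 probes above background on all 4 arrays, 16 were lower at that p and 0 higher. Of all 19461 such probes, 1736 were lower and 1410 higher. With the variance modelled as a trend on intensity, limma called 287 probes, PCDH9 and PCDHGC3 among them. With arrays scaled to their median it called 826 (3.89%), 7 protocadherins among them, 6 lower and 1 higher. Under that scaling the adjusted p of protocadherin probes followed the size of the change, not the spread between replicates. The limma adjusted p was 0.00503 for PCDHA4, carried by knockdown replicate 2, and 0.212 for PCDHB10, whose replicates lay close together. At an adjusted p of 0.1, 2 protocadherin probes passed, PCDH9 and PCDHGC3, among 1.13% of all probes.

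**Figure D1:**
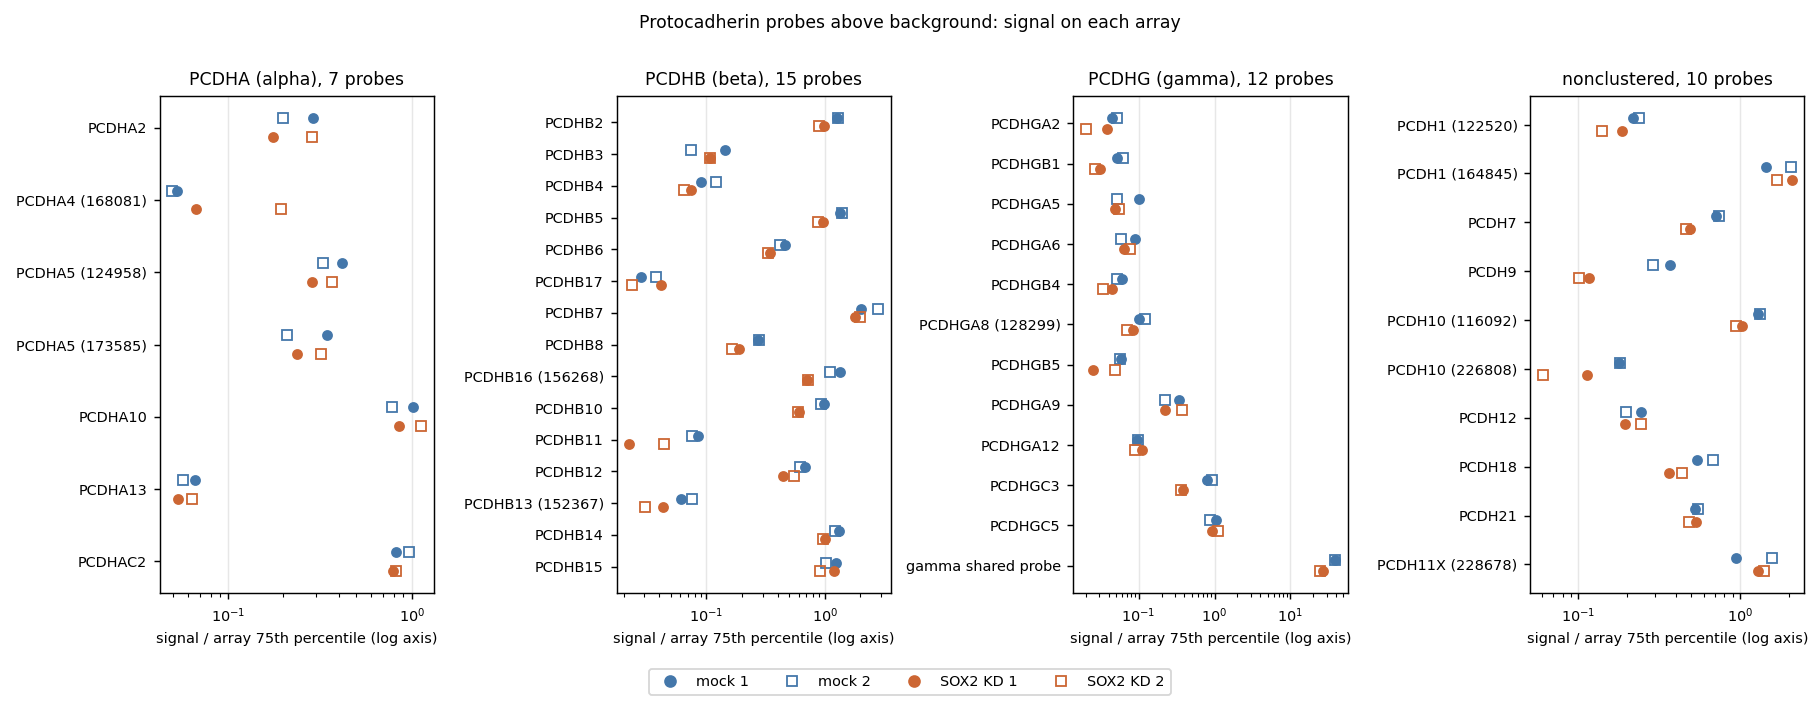
Signal on each array, relative to the array's 75th percentile on a log axis, for the 44 protocadherin probes compared, in gene order for the clusters. Blue marks mock knockdown and orange SOX2 knockdown, circles replicate 1 and open squares replicate 2; 12 of 15 beta probes have both orange symbols to the left of both blue ones, and 1 of 7 alpha probes does.

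The beta cluster had 15 of 19 probes in the comparison, 14 with a lower and 1 with a higher fitted change (50.2% of all probes had a lower one), and 12 with both knockdown arrays below both mock arrays. PCDHB16 read 1.34 and 1.1 in the mock samples, against 0.711 and 0.728 after knockdown. PCDHB10 read 0.98 and 0.933 in the mock samples, against 0.609 and 0.599 after knockdown. PCDHB5 read 1.33 and 1.39 in the mock samples, against 0.963 and 0.881 after knockdown. In these 3 genes the 2 arrays of a group lay closer to each other than to any array of the other group. Their log2 changes were -0.75 (SE 0.16), -0.66 (SE 0.13) and -0.56 (SE 0.13), with limma adjusted p = 0.141, 0.13 and 0.166. PCDHB8 read 0.274 and 0.279 in the mock samples, against 0.188 and 0.166 after knockdown, also without overlap, and its log2 change was -0.64 (SE 0.14). PCDHB8 and PCDHB13 are close copies: their promoters share a run of 55 bases, and the array gives their probes 1 gene ID. The probe sequences were not used here, so signal from 1 copy on the probe of another cannot be told apart.

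Other differences ran through the rest of the cluster. PCDHB2 read 1.26 and 1.3 in the mock samples, against 0.978 and 0.891 after knockdown. PCDHB14 read 1.32 and 1.23 in the mock samples, against 1 and 0.975 after knockdown. PCDHB6 read 0.464 and 0.419 in the mock samples, against 0.344 and 0.329 after knockdown. Each knockdown array was below each mock array in these 3, by 27%, 22.3% and 23.7% of the mock mean. PCDHB12 read 0.682 and 0.618 in the mock samples, against 0.442 and 0.552 after knockdown, and PCDHB7 read 2.03 and 2.82 in the mock samples, against 1.79 and 1.98 after knockdown. Neither overlapped, although mock replicate 1 of PCDHB7 lay close to knockdown replicate 2. PCDHB4, with 0.0908 and 0.121 in the mock samples, against 0.0742 and 0.0654 after knockdown, was also lower on both knockdown arrays.

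The largest beta ratios came from probes close to background. PCDHB11, the beta gene over 2-fold, read 0.0858 and 0.0756 in the mock samples, against 0.0223 and 0.0436 after knockdown, with S/N under 3 on knockdown replicate 1, and its log2 change was -1.37 (SE 0.35, limma adjusted p = 0.186). PCDHB13 read 0.0611 and 0.0756 in the mock samples, against 0.043 and 0.0302 after knockdown, with S/N under 3 on knockdown replicate 2. Both probes were lower on both knockdown arrays. PCDHB3, PCDHB15 and PCDHB17, the last of these a pseudogene, overlapped between groups, with log2 changes of 0.06, -0.10 and -0.06. The 4 beta probes outside the comparison measured PCDHB1, PCDHB9 and second positions in PCDHB13 and PCDHB16.

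The lower values were not gathered at 1 end of the cluster. In RefSeq's gene order, PCDHB4, PCDHB5 and PCDHB6 were separated downward, as were PCDHB7, PCDHB8 and PCDHB16, and PCDHB10 to PCDHB14. The log2 changes of the 3 beta genes whose promoters hold CATTGTT were -0.64, -0.66 and -0.91. Among these, PCDHB8 and PCDHB13 are the close copies described above. The -0.91 was that of PCDHB13, with S/N under 3 on knockdown replicate 2. The log2 changes of the 2 genes with AACAAAG, PCDHB2 and PCDHB4, were -0.46 and -0.59. The 7 compared beta genes whose windows hold neither ranged from -0.75 for PCDHB16 to 0.06 for PCDHB3. Outside the beta cluster, compared genes with AACAAAG had log2 changes of -0.79 (PCDHGA2), -0.51 (PCDHGA8), -0.04 (PCDHGA6), -0.10 (PCDHA2) and 0.14 (PCDHA10). A link between these letters and the changes was not tested. GGTGGCGCT was shared by PCDHB10, which was lower, and PCDHB15, which overlapped, as printed above.

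**Figure D2:**
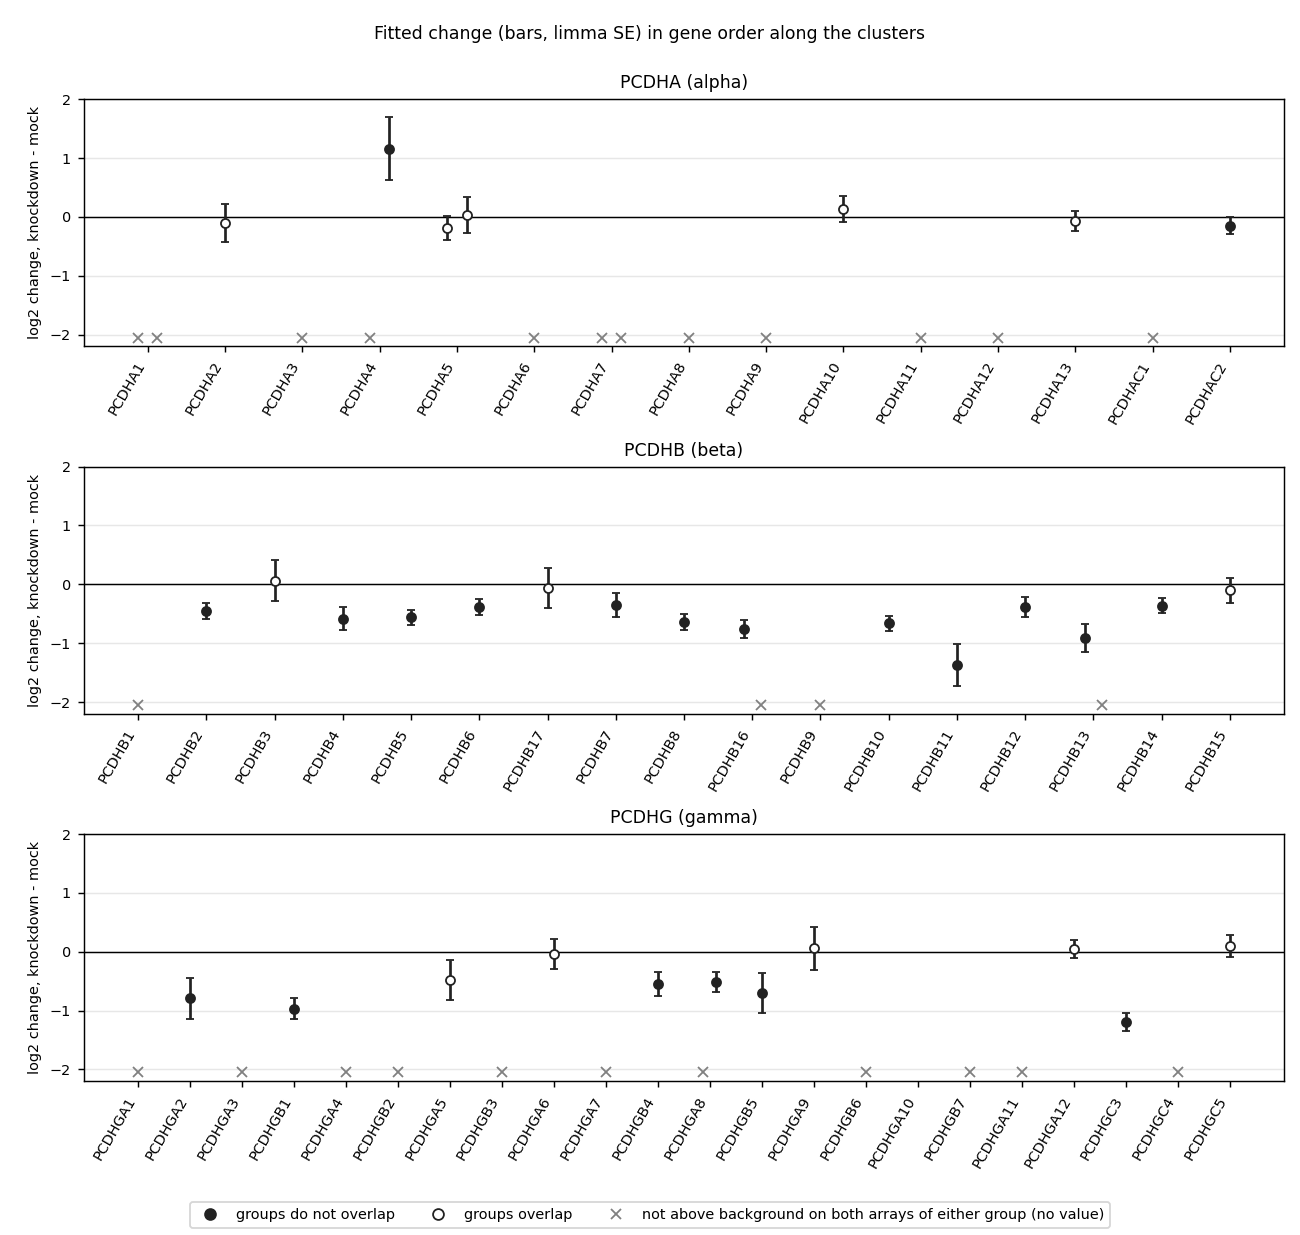
Fitted log2 change (SOX2 knockdown minus mock, bars limma SE) of each clustered gene, in gene order along the alpha, beta and gamma clusters. Filled circles are probes whose groups do not overlap, open circles those that overlap, and crosses probes with no value because they were not above background on both arrays of either group; the beta points lie below 0 except PCDHB3, and the alpha points lie near 0 except PCDHA4.

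In the gamma cluster 1 probe is annotated to 22 gamma genes at once. Whether it reads the whole cluster was not tested, since probe sequences were not used. The alpha probe annotated to 15 genes was above background on no array, although single alpha probes such as PCDHA10 and PCDHAC2 were on every array. The shared gamma probe gave 38.8 and 38.4 in the mock samples, against 26.6 and 24.6 after knockdown. Both knockdown arrays were lower, by 33.8% of the mock mean, with a log2 change of -0.60 (SE 0.13, limma adjusted p = 0.15). Fewer gamma transcripts per cell and fewer cells that make them cannot be told apart in such bulk RNA.

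PCDHGC3, a C-type gamma gene whose product is known to bind Axin1 and inhibit Wnt signalling, had the lowest ratio of knockdown to mock among the 12 compared gamma probes. It read 0.787 and 0.922 in the mock samples, against 0.387 and 0.356 after knockdown. The group values were 0.854 ± 0.095 (SD, n = 2) for mock and 0.372 ± 0.0224 (SD, n = 2) for SOX2 knockdown, without overlap. Its log2 change was -1.20 (SE 0.15, limma adjusted p = 0.0959), 2.3-fold lower, and the probe was above background on all 4 arrays. PCDHGC5, the C-type gene at the far end of the cluster, read 1.05 and 0.86 in the mock samples, against 0.928 and 1.12 after knockdown, with overlapping groups. The PCDHGC4 probe was above background on no array.

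Among the 9 compared probes of single A-type and B-type genes, 5 were lower on both knockdown arrays, with signals not far above background. PCDHGB1 read 0.0512 and 0.0625 in the mock samples, against 0.0312 and 0.0268 after knockdown, a log2 change of -0.97 (SE 0.17). PCDHGA8 read 0.101 and 0.121 in the mock samples, against 0.0846 and 0.0705 after knockdown. PCDHGB4 read 0.0611 and 0.0523 in the mock samples, against 0.0445 and 0.0336 after knockdown. These 3 were above background on all 4 arrays and none overlapped. PCDHGA2 read 0.0446 and 0.0523 in the mock samples, against 0.0386 and 0.0201 after knockdown, and PCDHGB5 read 0.0578 and 0.0567 in the mock samples, against 0.0252 and 0.0487 after knockdown. PCDHGA2 was not above background on knockdown replicate 2 and PCDHGB5 not on knockdown replicate 1, the lower array of each. PCDHGA5, PCDHGA6, PCDHGA9 and PCDHGA12 overlapped, with log2 changes from -0.48 to 0.06. PCDHGA3, which the study names from these samples, read 0.0264 and 0.0378 in the mock samples, against 0.0148 and 0.01 after knockdown, with S/N over 3 on mock replicate 2 and knockdown replicate 1 only, so it did not enter the comparison. The probes of PCDHGA1, PCDHGB6 and PCDHGB7, also outside the comparison, were likewise lower on both knockdown arrays. The other gamma probes outside it overlapped: PCDHGA4, PCDHGA7, PCDHGA11, PCDHGB2, PCDHGB3, PCDHGC4 and the second PCDHGA8 probe. None of these probes was above background on both arrays of either group, so their order is no measured change.

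The alpha cluster was mostly at background: 13 of its 20 probes were not above background on both arrays of either group, the probe annotated to 15 alpha genes among them. PCDHA4, the gene over 2-fold higher, read 0.0528 and 0.0494 in the mock samples, against 0.0668 and 0.195 after knockdown. Knockdown replicate 1 lay near the mock arrays and knockdown replicate 2 carried the difference, and the log2 change was 1.16 (SE 0.53, limma adjusted p = 0.378). Without knockdown replicate 2, PCDHA4 was no longer over 2-fold. A second PCDHA4 probe was above background on no array. PCDHAC2, a C-type alpha gene, read 0.823 and 0.971 in the mock samples, against 0.794 and 0.822 after knockdown and was separated downward by 9.93% of the mock mean. PCDHA2, PCDHA10, PCDHA13 and both probes of PCDHA5 overlapped, with log2 changes from -0.19 to 0.14.

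Alpha probes varied between replicates in a common way. Knockdown replicate 2 was above knockdown replicate 1 for 7 of 7 compared alpha probes, by a median of 0.40 on the log2 scale, and mock replicate 2 was below mock replicate 1 for 6 of 7, by a median difference of -0.33. For the beta probes the same medians were -0.07 and -0.07, and over all probes -0.01 and 0.03, each as replicate 2 minus replicate 1. They were -0.12 and -0.02 for gamma and -0.13 and 0.06 for nonclustered probes. Single probes outside the alpha cluster, PCDHGA9, PCDHGC5 and PCDH12 among them, were also higher on mock replicate 1 and knockdown replicate 2. Across all compared probes, deviations of same-numbered arrays from their group means correlated with r = -0.48, so the pattern is not particular to alpha. Mock replicate 1 and knockdown replicate 2 had 75th percentiles of 6.06 and 5.96 in the deposited unit, below the 6.88 and 6.74 of the other two arrays, and the part of this in the alpha values was not tested.

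**Figure D3:**
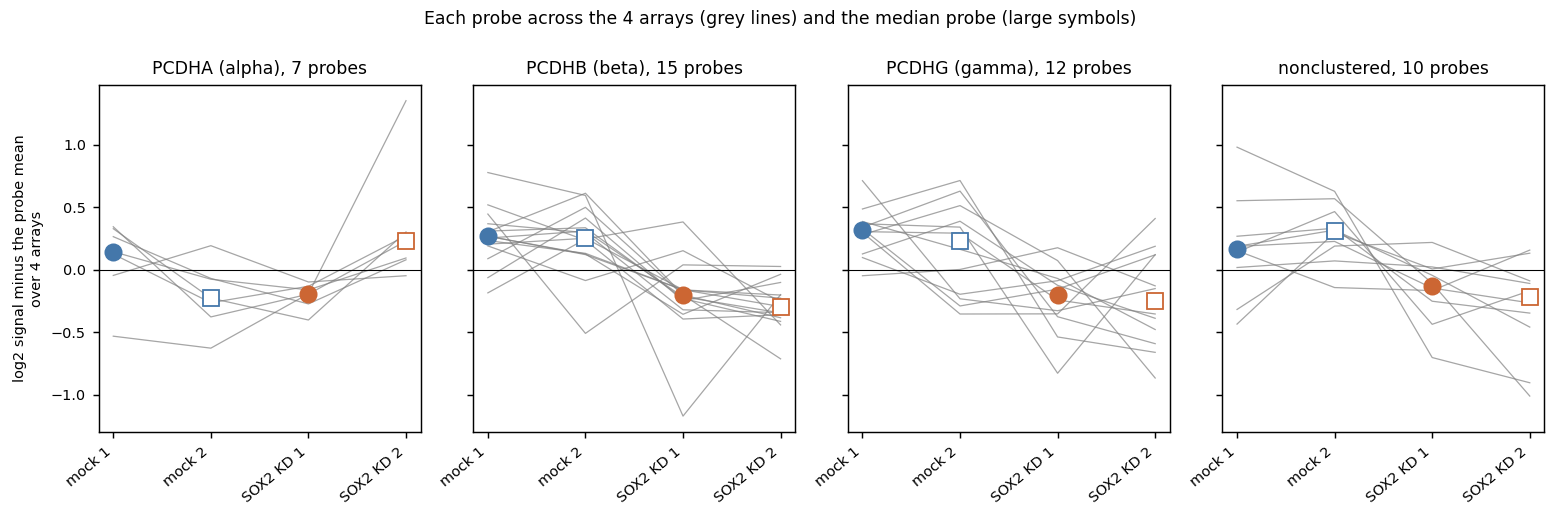
Log2 signal of each compared probe minus its own mean over the 4 arrays (grey lines), with the median probe of each cluster as a large symbol, blue for mock and orange for SOX2 knockdown. The beta, gamma and nonclustered medians step down from the mock to the knockdown arrays, whereas the alpha medians are high on mock replicate 1 and knockdown replicate 2.

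Of the nonclustered protocadherins, 10 of 19 probes were compared, 6 of them separated downward. PCDH9, a delta protocadherin of the nervous system, read 0.371 and 0.291 in the mock samples, against 0.116 and 0.101 after knockdown. The group values were 0.331 ± 0.057 (SD, n = 2) for mock and 0.108 ± 0.0107 (SD, n = 2) for SOX2 knockdown, 3.06-fold lower, and did not overlap. Its log2 change was -1.61 (SE 0.18, limma adjusted p = 0.0884), although knockdown replicate 1 was not above background. PCDH7, whose product binds the phosphatase PP1 and the protein SET, read 0.706 and 0.738 in the mock samples, against 0.493 and 0.461 after knockdown, a log2 change of -0.60 (SE 0.13). PCDH18 read 0.545 and 0.682 in the mock samples, against 0.365 and 0.44 after knockdown, a log2 change of -0.60 (SE 0.19). Both were above background throughout and did not overlap.

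PCDH10, a delta protocadherin that recruits the WAVE actin regulators and is often silenced by promoter methylation in tumours, had 2 probes. Probe 116092 read 1.29 and 1.33 in the mock samples, against 1.03 and 0.946 after knockdown, 24.8% lower by group means. Probe 226808 read 0.178 and 0.18 in the mock samples, against 0.113 and 0.0604 after knockdown and was not above background on either knockdown array. The ratio of its linear group means was 2.07-fold and that of its log2 means 2.17-fold, but with knockdown signals not above background neither is a measured fold. Against a signal worth an S/N of 3 on this probe itself, no fold could be given.

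The probes of PCDH1, a delta protocadherin of airway epithelium, disagreed. One read 0.218 and 0.238 in the mock samples, against 0.186 and 0.139 after knockdown, without overlap, and the other read 1.44 and 2.05 in the mock samples, against 2.09 and 1.69 after knockdown, with overlap. PCDH12, an endothelial protocadherin, PCDH21, a photoreceptor gene, and PCDH11X overlapped, with log2 changes of -0.01, -0.09 and 0.14. PCDH8, PCDH15, PCDH17, PCDH19 and PCDH20 were above background on no array. The 3 probes annotated to both PCDH11X and PCDH11Y did not enter the comparison.

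Whether a gene appeared changed depended in part on which probe read it. Of 10 symbols with 2 probes, 3 had both in the comparison, 5 had 1 and 2 had none. PCDH10 moved the same way in both, PCDH1 and PCDHA5 differed in sign, and in PCDHB13, PCDHB16, PCDHGA8, PCDHA4 and PCDH11X the second probe was not above background on both arrays of either group. The array's gene IDs hide more: all 20 alpha probes share 1 ID and all 23 gamma probes another. Averaging by gene ID gave a log2 change of -0.01 for the alpha ID and -0.57 for the gamma ID, in which PCDHA4 and PCDHGC3 had no value of their own. The gamma mean was dominated by the shared gamma probe, at 38.8 and 38.4 in the mock samples, whose own log2 change was -0.60.

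**Figure D4:**
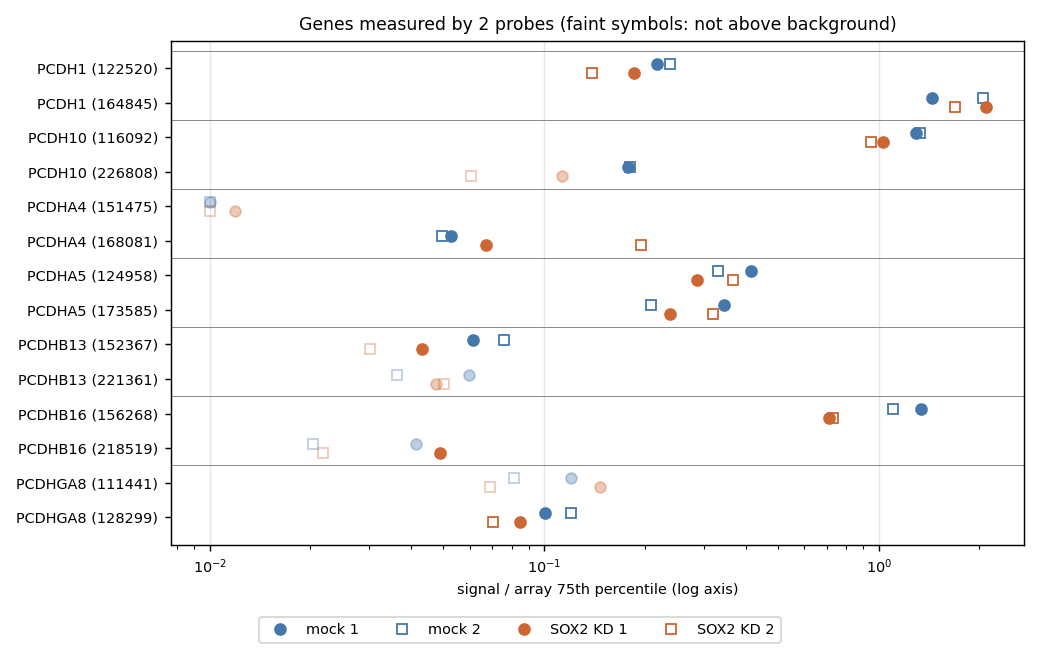
Signal on each array, relative to the array's 75th percentile on a log axis, of both probes of 7 genes. Colours and symbols are as for the plot of all compared probes, and faint symbols have S/N at or under 3; the PCDH10 probes are lower after knockdown, the PCDH1 probes differ, and the second probes of PCDHA4, PCDHB13, PCDHB16 and PCDHGA8 are mostly faint.

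Genes that act with protocadherins were read from a list of 34, all found on the array, 32 of them with a compared probe. Of 37 compared probes, 15 were separated downward and 4 upward, against 25.8% and 21.2% of all probes, and 3 were over 1.5-fold lower and none higher, against 5.19% and 5.32%. None had an adjusted p under 0.1 in limma. CTCF and the cohesin subunits RAD21, SMC1A and STAG2, which loop promoters of the clusters to enhancers, overlapped, with log2 changes of 0.05, 0.04, 0.00 and 0.09. NIPBL, which loads cohesin, also overlapped, at 0.12, whereas the cohesin subunit SMC3 was separated downward, at -0.13, and WAPAL, which releases cohesin, upward, at 0.42. STAG1 read 1.39 and 0.262 in the mock samples, against 0.361 and 0.389 after knockdown, where mock replicate 1 alone was high and the groups overlapped. SMCHD1 and DNMT1, which silence cluster promoters, had log2 changes of -0.37 and 0.10 for the 2 compared SMCHD1 probes and 0.18 for DNMT1.

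The proteases that shed and cleave protocadherins had 7 compared probes, all with a lower fitted change and 4 separated downward, against 50.2% and 25.8% of all probes. ADAM10, the sheddase, read 2.37 and 2.27 in the mock samples, against 1.62 and 1.52 after knockdown, a log2 change of -0.56 (SE 0.13). NCSTN, a gamma-secretase subunit, read 1.17 and 1.26 in the mock samples, against 0.75 and 0.634 after knockdown on probe 165998, a log2 change of -0.82 (SE 0.15), with no overlap in these probes, while the other NCSTN probe overlapped. The WAVE complex, which delta protocadherins such as PCDH10 recruit, had 6 of 8 compared probes separated downward, against 25.8% of all. CYFIP2 read 0.335 and 0.378 in the mock samples, against 0.257 and 0.188 after knockdown, a log2 change of -0.70 (SE 0.20), and NCKAP1, its partner in the complex, had a log2 change of -0.03. AXIN1, the partner of PCDHGC3, read 0.366 and 0.254 in the mock samples, against 0.37 and 0.406 after knockdown. It was separated upward, although its mock replicate 1 lay close to knockdown replicate 1. CTNNB1 read 6.62 and 6.95 in the mock samples, against 6.13 and 4.62 after knockdown, and was separated downward.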

How the data were processed

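The label on the sample source gave each array its group, and the title gave its replicate number. The deposited scanner files hold, per the file headers, a normalized signal on a linear intensity scale, flags and a signal-to-noise score (S/N). No genome coordinates were taken from the array files. The authors also deposited a table of linear ratios per probe, used as an alternative. Its column medians were 0.102 on each array, and it returned the group ratios of the scanner signal with r = 0.998 across probes.

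Control features and 210 probes with a flag of 5000 or more were left out, none of them a protocadherin. The meaning of the flags is not stated. Signals were divided by the array's 75th percentile, floored at 0.01 and taken to log2. Probes whose S/N passed 3 on each array of 1 group or of both were compared with limma 3.58.1 in R 4.3.3. The fit used lmFit and eBayes, two-sided, with no block and Benjamini-Hochberg over 21256 probes. The same probes were compared by linear group means at the study's 2-fold cutoff, without the averaging by gene ID that the study describes. The script was tested on simulated data. The members, the gene lists and the motifs were chosen with earlier results of these data known. The text names SOX2, every compared protocadherin probe, the genes the study names, and the 4 linked genes with the largest change; other linked genes were named for their role. Of the 26 marker genes, 25 were found. A comparison of protein sequences was not run. Replicate numbers were checked as pairs: deviations of same-numbered arrays from their group means correlated with r = -0.48 across probes. The numbers were therefore not used to pair samples, and how the transfections were paired was not tested. The alternatives covered scaling, background correction, floors, filters, fold cutoffs, variance models, gene-ID means, blocks and leaving out each array.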

Additional observations from a re-analysis of the deposited data

How the results depend on the processing

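The beta, gamma and nonclustered medians stayed below 0 under every alternative run, and the alpha median changed sign without mock replicate 1 and without knockdown replicate 1. Of 738 values of single protocadherin probes under the alternatives, 35 changed sign, in 16 of the 44 probes. The 738 include settings that only changed the S/N filter, and the replicate block. These left the log2 change of each probe as it was, so its sign could not change there. limma's count at an adjusted p of 0.05, 0 probes in all and 0 protocadherins, became 826 and 7 when arrays were scaled to their median, 776 and 7 with no further scaling, 758 and 7 in the authors' table, and 287 and 2 with a variance trend. The 7 were the same in the first 3 of these: PCDH9, PCDH10, PCDHA4, PCDHB11, PCDHB13, PCDHGB1 and PCDHGC3. In those 3 settings the adjusted p of protocadherin probes followed the size of the log2 change alone. The calls there act as a fold cutoff and take no account of each probe's replicate spread. SOX2 passed there too, with log2 changes of -1.73, -1.72 and -1.72. When all 4 arrays had to pass S/N, limma called 5 probes, none of them a protocadherin, and an adjusted p under 0.1 gave 241 and 2. The cause was not tested.

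The count over 2-fold, 554 probes in all and 5 protocadherins, became 234 and 1 (PCDHGC3) with normexp, 363 in all with a floor of 0.05, 1373 and 9 when no S/N was required, 302 and 2 when all 4 arrays had to pass, 2234 and 16 at 1.5-fold, and 119 and 1 at 3-fold. It was 8 protocadherins with the mean S/N over 3 and 2 with gene-ID means. Leaving out 1 array gave 782 to 1192 probes in all and 5 to 10 protocadherins, with 1192 and 10 without mock replicate 1, 868 in all without mock replicate 2, and 1135 and 8 without knockdown replicate 1. In each case the single array left in a group was assumed to vary like the other group.

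The beta median was -0.29 with normexp, against -0.46 as reported, and the alpha median was -0.11, against -0.07. The gamma median was -0.15 with normexp and -0.18 with a floor of 0.05, and -0.23 to -0.63 when 1 array was left out, the first without knockdown replicate 1. The nonclustered median was -0.28 with normexp, -0.088 when no S/N was required, -0.25 when all 4 arrays had to pass and -0.28 with gene-ID means, and -0.32 to -0.50 when 1 array was left out. The same range was -0.18 to 0.25 for alpha and -0.46 to -0.59 for beta. With the replicate number as a block, limma called 0 probes and the 2-fold counts were as given. A crossed pairing of the numbers, chosen after seeing the data, also gave 0 at an adjusted p of 0.05, and 2105 probes with 13 protocadherins at 0.1.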
